A study of Mus musculus with 24 samples.

Results

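Transforming growth factor beta (TGF-beta) genes were described in the left ventricle of mice with hypertensive left ventricular hypertrophy (LVH). The members were the 10 rows of an expression table of 14912 genes whose symbol is that of a TGF-beta ligand (Tgfb1, Tgfb2, Tgfb3), a TGF-beta receptor (Tgfbr1, Tgfbr2, Tgfbr3) or a latent TGF-beta binding protein (Ltbp1, Ltbp2, Ltbp3, Ltbp4). All 24 animals were male wild-type C57BL/6J mice, and their ages were not given in the sources used here. The hypertensive-LVH group of 12 samples received angiotensin II (ANG II), a peptide hormone that raises blood pressure, at 1500 ng/kg/min for 7 days from a minipump under the skin, and the control group of 12 samples received saline the same way. Hearts were flushed with saline before the left ventricle was taken, and polyadenylated RNA was sequenced as paired ends of 150 bases. The study sequenced further animals of both groups that are not analysed here.

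TGF-beta is made by cells as an inactive precursor. The ligand stays wrapped in its own propeptide, and this latent complex is bound by an Ltbp protein that anchors it to fibrillin and other matrix fibers, except that Ltbp2 is known as a matrix protein that does not bind the latent ligand. Integrins and proteases release the ligand, which binds Tgfbr2. Tgfbr2 then phosphorylates Tgfbr1, and Tgfbr1 phosphorylates Smad2 and Smad3, which act on target genes with Smad4. Tgfbr3, or betaglycan, is a co-receptor that presents ligand, above all the Tgfb2 product, to Tgfbr2. In the heart the pathway is best known for turning fibroblasts into matrix-producing cells.

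The values are FPKM, fragment counts scaled by the length of the transcript and the size of the library. They had also been adjusted gene by gene in 4 sets of samples, each with 3 mice of either group. Their spacing fits an adjustment that first took out 1 difference between the groups per gene, common to the 4 sets, then moved and rescaled what was left within each set, and at the end put the difference back. Where the scale of a set is not 1, the control and hypertensive-LVH samples of that set were thus moved by different amounts, and the adjusted group difference within a set is a mix of that set's own difference and the common one. The sets were samples 1 to 3, samples 4 to 6, samples 7 to 9 and samples 10 to 12. The sets were found from exact ties between samples, which numbered 218 to 546 genes between samples of a set and at most 12 between samples of different sets. The labels do not say what a set stands for. Of all values, 0.766% were below 0. The values of a control sample summed to between 482319 and 567727 FPKM and those of a hypertensive-LVH sample to between 460715 and 515185 FPKM, and the lowest correlation between any pair of samples was 0.939. No read totals were given, so no counting error was attached to a value. Samples 4 to 6 stood apart in the size of their group differences, so the tests of the members and the counts of the pathway list are given with and without them. On the adjusted values, leaving them out may not remove their part in the difference common to the 4 sets. The offset of each set was itself set by the adjustment, so how far a sample lies from those of another set depends on the adjustment. Counts of samples of one group above or below the other over all 24 samples describe the adjusted values.

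The cardiomyocyte markers had summed levels of 23786 to 36954 FPKM in every sample, which does not tell the chamber of the heart. Markers of other cells moved with the groups. All 6 macrophage markers rose, with sums of 130 to 280 FPKM in control and 184 to 531 FPKM in hypertensive-LVH samples. Of 8 fibroblast markers 4 rose, and their sums were 142 to 1017 FPKM in control and 708 to 2639 FPKM in hypertensive-LVH samples. In control samples 4 to 6 the fibroblast sums were 142 to 258 FPKM, and Col1a1, Col1a2 and Col3a1 were below 0 in all 3 of them, while hypertensive-LVH samples 4 to 6 held 1654 to 2639 FPKM. Of 6 cardiomyocyte markers 3 fell, 1 of 6 endothelial markers rose and 1 fell, and 1 of 6 smooth muscle and pericyte markers rose and 2 fell. All 5 red blood cell markers rose, as did 1 of 4 platelet markers, while of 4 lymphocyte markers tested 1 rose and 1 fell and 3 atrial markers did not pass. The atrial sums varied widely between samples, from 0 to 3153 FPKM in control and from 0 to 2303 FPKM in hypertensive-LVH samples, with negative values set to 0. Whether some samples held atrial tissue was not tested. Without samples 4 to 6, limma called 1 of 8 fibroblast markers and 0 of 6 macrophage markers higher. At an unadjusted P below 0.05 these were 3 of 8 and 3 of 6, and by the exact test before the adjustment 1 and 0. In the same fit 5 of 5 red blood cell markers and 1 of 4 platelet markers rose. Of 6 cardiomyocyte markers 2 fell, as did 2 of 6 smooth muscle and pericyte markers. Of 6 endothelial markers 1 rose and 1 fell, of 5 lymphocyte markers 1 fell, and 0 of 3 atrial markers passed. In whole tissue, fewer cells of a type and less RNA per cell cannot be told apart. The part of these markers in the results on the members was not tested.

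Of the 10 members 6 rose in the hypertensive-LVH group at an adjusted P value below 0.05 by limma, against 20.9% of the 14026 genes tested. The 6 were all 3 ligands, the type II receptor Tgfbr2, and the latency proteins Ltbp2 and Ltbp3. Of these, 5 also passed the criteria for differentially expressed genes (DEGs), an adjusted P value below 0.05 and an absolute log2 fold change over 0.5, which 4.52% of all genes passed in this direction, and Tgfb1 did not. A lower level was found for 0 members, against 12.6% of all genes, also at an unadjusted P value below 0.05 by limma and by the exact test within sets. Tgfbr1, Tgfbr3, Ltbp1 and Ltbp4 did not pass. The median log2 fold change was 0.53 over the members and 0.05 over all genes, and 8 of 10 members against 63.8% of all genes had the higher mean in the hypertensive-LVH group. The groups overlapped for each of the 10 members, and 0.756% of all genes had groups that did not overlap. All 10 members passed the filter on low values, a mean of 0.1 FPKM.

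**Figure D1:**
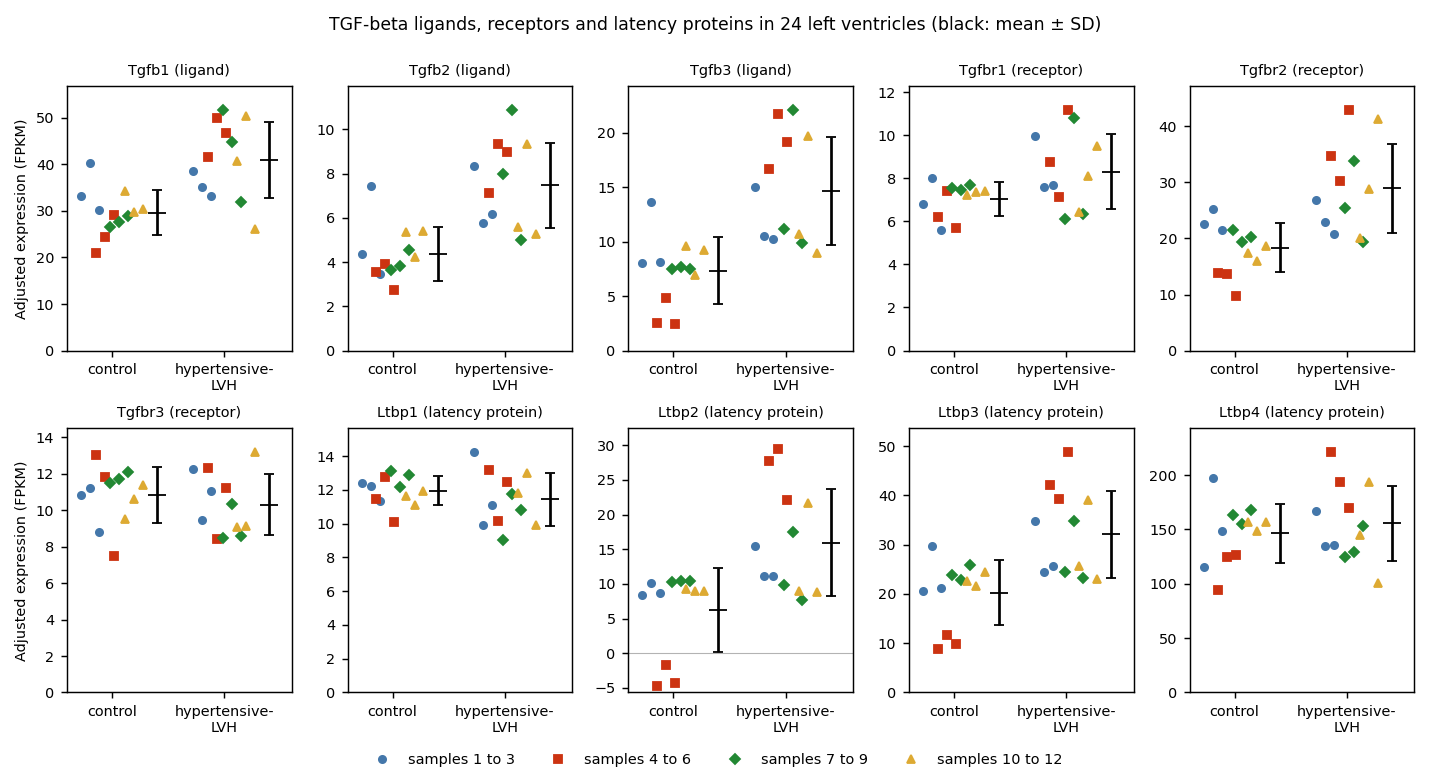
Adjusted FPKM of the 10 members (vertical axes, a scale for each gene) in 12 control and 12 hypertensive-LVH left ventricles, with a point for each sample, a symbol for each set and black bars for the mean and SD. All 12 hypertensive-LVH values of Tgfb2, Tgfb3, Tgfbr2 and Ltbp3 lay above the control median, and control samples 4 to 6 held the 3 negative values of Ltbp2.

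Among the ligands, Tgfb1 had the highest mean of the adjusted FPKM. It encodes the isoform best known for driving tissue fibrosis. Its level was lowest at 21.0, 29.4 at the median and highest at 40.2 FPKM in the control group, and 26.1, 41.1 and 51.6 FPKM in the hypertensive-LVH group. In 11 of 12 hypertensive-LVH samples the level was above the control median, and 7 were above every control sample. The means were 29.6 ± 4.89 FPKM and 40.9 ± 8.18 FPKM (SD, n = 12 per group), and the log2 fold change was 0.44 ± 0.10 (SE) with an adjusted P of 0.00213 by limma.

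Tgfb2, the isoform needed for heart valve and outflow tract development, was the least abundant member in both groups. Its lowest, median and highest levels were 2.73, 4.08 and 7.44 FPKM in the control group and 5.00, 7.54 and 10.9 FPKM in the hypertensive-LVH group. All 12 hypertensive-LVH samples were above the control median, and 9 of 12 control samples were below the lowest hypertensive-LVH sample. The log2 fold change of 0.66 ± 0.12 had the smallest adjusted P of the 10 members, 3.3e-04 by limma.

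Tgfb3 is the third isoform. Its levels were 2.41, 7.60 and 13.7 FPKM at the lowest, median and highest control sample and 8.96, 13.1 and 22.1 FPKM in the hypertensive-LVH group. All 12 hypertensive-LVH samples exceeded the control median, and a control sample of samples 1 to 3 at 13.7 FPKM lay among them. The log2 fold change was 0.95 ± 0.21, with an adjusted P of 0.00129 by limma. This fold was above that of Tgfb2 over all samples, but without samples 4 to 6 the values differed by less than their errors, at 0.51 ± 0.16 for Tgfb3 and 0.50 ± 0.14 for Tgfb2.

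The receptors did not move together. Tgfbr2, the receptor that binds free ligand, was lowest at 9.79, 19.0 at the median and highest at 25.2 FPKM in the control group, and 19.4, 27.8 and 42.9 FPKM in the hypertensive-LVH group. All 12 hypertensive-LVH samples lay above the control median and 8 above every control sample. The log2 fold change was 0.63 ± 0.14, with an adjusted P of 0.00171 by limma. Tgfbr1, the kinase that phosphorylates Smad2 and Smad3, spanned 5.58 to 8.02 FPKM in control and 6.12 to 11.2 FPKM in hypertensive-LVH samples, of which 6 lay above every control sample and 4 below the control median. Its log2 fold change of 0.19 ± 0.09 did not pass, with an adjusted P of 0.0820 by limma. Tgfbr3, the co-receptor, spanned 7.48 to 13.1 FPKM in control and 8.43 to 13.2 FPKM in hypertensive-LVH samples, with a log2 fold change of -0.07 ± 0.08 and an adjusted P of 0.532 by limma.

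Of the latency proteins, Ltbp2 showed the largest fold of the 10 members over all samples. Its level was -4.71 at the lowest, 8.97 at the median and 10.4 FPKM at the highest control sample, and 7.68, 13.3 and 29.5 FPKM in the hypertensive-LVH group. The 3 control values below 0 were those of samples 4 to 6 and were set to 0 for the test, and 8 of 12 hypertensive-LVH samples lay above every control sample. The log2 fold change was 1.41 ± 0.45 with an adjusted P of 0.0180 by limma, and without samples 4 to 6 it was 0.29 ± 0.15 with an adjusted P of 0.172. Because of the values set to 0, the fold over all samples depends on the pseudocount, and it was 2.24 (adjusted P of 0.0387 by limma) with 0.1 in place of 1.

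Ltbp3, which helps secrete and anchor the latent complex, was 8.77, 22.2 and 29.8 FPKM at the lowest, median and highest control sample and 23.0, 30.2 and 48.8 FPKM in the hypertensive-LVH group. All 12 hypertensive-LVH samples exceeded the control median, and 8 of 12 control samples lay below the lowest of them. The log2 fold change was 0.68 ± 0.18, with an adjusted P of 0.00560 by limma. Ltbp4, which binds the Tgfb1 product and also takes part in elastic fiber assembly, had by far the highest level of the members, 94.5 to 198 FPKM in control and 101 to 221 FPKM in hypertensive-LVH samples. Its log2 fold change was 0.08 ± 0.12, with an adjusted P of 0.607 by limma. Ltbp1, the founding member of the family, spanned 10.1 to 13.1 FPKM in control and 9.04 to 14.2 FPKM in hypertensive-LVH samples, with a log2 fold change of -0.06 ± 0.06 and an adjusted P of 0.434 by limma.

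Levels were ordered by the mean of the adjusted FPKM, which start from values per length but carry an offset for each gene and set. In this order the control group ran Ltbp4, Tgfb1, Ltbp3, Tgfbr2, Ltbp1, Tgfbr3, Tgfb3, Tgfbr1, Ltbp2 and Tgfb2. Ltbp4 was above Tgfb1, and Tgfb1 above Ltbp3, in 12 of 12 control samples. Neighbours further down were closer, with Ltbp3 above Tgfbr2 in 8, Tgfb3 above Tgfbr1 in 6 and Tgfbr1 above Ltbp2 in 3 of 12 samples. In the hypertensive-LVH group Ltbp2 and Tgfb3 stood above Ltbp1 and Tgfbr3, and the order ran Ltbp4, Tgfb1, Ltbp3, Tgfbr2, Ltbp2, Tgfb3, Ltbp1, Tgfbr3, Tgfbr1 and Tgfb2. Ltbp2 was above Tgfb3 in 7 and Tgfb3 above Ltbp1 in 8 of 12 samples. Without samples 4 to 6, where the control values of Ltbp2 are below 0, Ltbp2 moved up to rank 7 in the control group and Tgfb3 stood above Ltbp2 in the hypertensive-LVH group, while the other genes kept their order.

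The make-up of each family was formed in every sample from the adjusted FPKM, as a description with the same limit. The 3 ligands summed to 41.3 ± 8.70 FPKM in the control group and 63.0 ± 14.0 FPKM in the hypertensive-LVH group. Tgfb1 made up 72.3% ± 4.99 of this sum in the control group and 65.3% ± 4.39 in the hypertensive-LVH group, Tgfb3 17.1% ± 4.59 and 22.9% ± 3.66, and Tgfb2 10.6% ± 1.57 and 11.8% ± 1.22. Among the receptors the share of Tgfbr2 was 50.1% ± 5.95 and 60.3% ± 4.56 while that of Tgfbr3 was 30.3% ± 4.27 and 22.1% ± 3.33. Ltbp4 held 79.1% ± 3.40 and 72.5% ± 3.35 of the latency proteins, Ltbp3 10.7% ± 2.05 and 14.9% ± 2.04, and Ltbp2 3.56% ± 2.17 and 7.12% ± 2.03, with its negative values set to 0. The shares other than that of Tgfb2 were closer without samples 4 to 6 (n = 9 per group), at 70.2% ± 2.43 and 66.2% ± 4.74 for Tgfb1, 19.3% ± 1.61 and 21.8% ± 3.66 for Tgfb3, 52.7% ± 4.04 and 58.9% ± 4.26 for Tgfbr2, 77.5% ± 1.57 and 73.3% ± 3.29 for Ltbp4 and 4.74% ± 0.394 and 6.31% ± 1.56 for Ltbp2. The share of Tgfb2 was then 10.4% ± 1.24 and 12.0% ± 1.38.

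**Figure D2:**
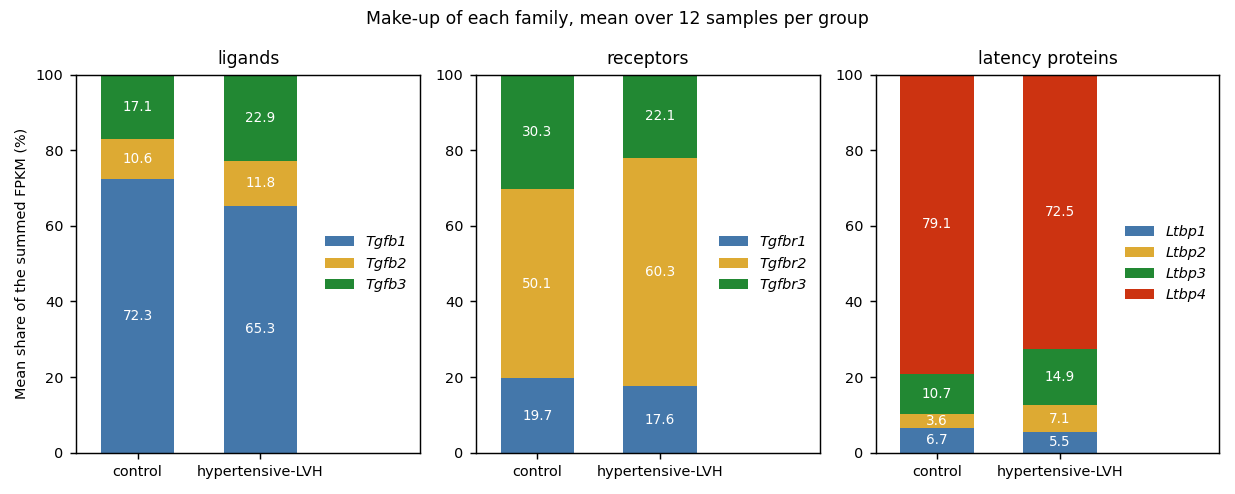
Mean share of each gene in the summed adjusted FPKM of its family (vertical axis, %), with a bar for each group of 12 samples. Tgfb1 and Ltbp4 held the largest share of their families in both groups, and the share of Tgfbr2 was 50.1% in the control group and 60.3% in the hypertensive-LVH group.

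Promoter sequences were looked up for the members (RefSeq, GRCm38.p6, 250 bases before to 50 after a start site), and 8 of 10 had an entry. They are shown for a pair of ligands and a pair of latency proteins that rose, because the promoters of the pairs differ in the letters of common elements. Capitals mark exact matches on either strand to common promoter elements. The Smad box, to which Smad3 and Smad4 bind, was searched as CAGAC. The AP-1 site, bound by Fos and Jun proteins, was searched as TGAGTCA. The cAMP response element was searched as TGACGTCA, which reads the same on both strands. The GC box, bound by Sp1 and its relatives, was searched as GGGCGG. The TATA box, where the basal transcription machinery assembles, was searched as TATAAA. The E-box of basic helix-loop-helix proteins was searched as CACGTG. The Tgfb1 window lies at chr7:25686752-25687051 on the plus strand, that of Tgfb2 at chr1:186705940-186706239 on the minus strand, that of Ltbp2 at chr12:84876442-84876741 on the minus strand and that of Ltbp3 at chr19:5740650-5740949 on the plus strand.
Tgfb1: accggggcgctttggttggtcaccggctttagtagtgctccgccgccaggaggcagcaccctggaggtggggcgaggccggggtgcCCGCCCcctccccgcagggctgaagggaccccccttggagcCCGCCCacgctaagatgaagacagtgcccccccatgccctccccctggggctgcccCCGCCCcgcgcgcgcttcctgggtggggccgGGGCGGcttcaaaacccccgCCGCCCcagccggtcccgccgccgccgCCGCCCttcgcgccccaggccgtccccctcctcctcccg
Tgfb2: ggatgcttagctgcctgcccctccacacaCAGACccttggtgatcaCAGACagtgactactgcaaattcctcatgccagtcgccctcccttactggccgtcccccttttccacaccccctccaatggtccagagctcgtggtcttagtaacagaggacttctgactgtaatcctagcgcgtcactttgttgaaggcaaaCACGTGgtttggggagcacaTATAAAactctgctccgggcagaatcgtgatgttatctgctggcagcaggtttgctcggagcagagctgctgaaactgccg
Ltbp2: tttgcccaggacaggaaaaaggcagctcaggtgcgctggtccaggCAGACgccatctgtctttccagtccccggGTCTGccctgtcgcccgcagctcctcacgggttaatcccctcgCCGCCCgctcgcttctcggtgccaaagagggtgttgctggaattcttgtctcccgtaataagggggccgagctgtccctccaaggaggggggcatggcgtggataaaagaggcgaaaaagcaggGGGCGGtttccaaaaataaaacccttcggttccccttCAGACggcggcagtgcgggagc
Ltbp3: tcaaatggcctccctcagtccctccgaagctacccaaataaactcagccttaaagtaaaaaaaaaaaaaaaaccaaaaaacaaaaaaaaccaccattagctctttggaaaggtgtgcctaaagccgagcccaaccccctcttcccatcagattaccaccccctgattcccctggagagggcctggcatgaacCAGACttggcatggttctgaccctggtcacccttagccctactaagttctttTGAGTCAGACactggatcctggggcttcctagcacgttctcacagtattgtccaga
The Tgfb1 window held 6 GC boxes and none of the other 5 elements. The Tgfb2 window held 2 Smad boxes, a TATA box and an E-box and no GC box. The Ltbp2 window held 3 Smad boxes and 2 GC boxes, and the Ltbp3 window 2 Smad boxes and an AP-1 site, the AP-1 site overlapping a Smad box so that the pair appears as 1 run of capitals. Of 32851 promoters of the same length, 49.6% held a Smad box, 35.7% a GC box, 13.6% a TATA box, 7.15% an E-box, 5.2% an AP-1 site and 1.79% a cAMP response element. A match describes letters only, and nothing was measured about binding.

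All 10 members are protein-coding genes in GENCODE vM21 on GRCm38. The ligands are at chr7:25687002-25705077 on the plus strand (Tgfb1), chr1:186622792-186705989 on the minus strand (Tgfb2) and chr12:86056745-86079041 on the minus strand (Tgfb3). The receptors are at chr4:47353222-47414931 on the plus strand (Tgfbr1), chr9:116084293-116175360 on the minus strand (Tgfbr2) and chr5:107106570-107289629 on the minus strand (Tgfbr3). The latency proteins are at chr17:75005568-75392512 on the plus strand (Ltbp1), chr12:84783212-84876532 on the minus strand (Ltbp2), chr19:5740904-5758532 on the plus strand (Ltbp3) and chr7:27305136-27337692 on the minus strand (Ltbp4). Tgfb1 and Ltbp4 thus share chromosome 7, and Tgfb3 and Ltbp2 share chromosome 12. The build used to make the table was not given in the sources used here, so these positions describe the genes and not the values.

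The group difference of 4 members depended on the set of samples, by the interaction of group and set in limma, which passed for 7.49% of all genes. These were Ltbp2 with an adjusted P of 3.84e-08, Ltbp3 with 2.37e-04, Tgfb3 with 0.0115 and Tgfbr2 with 0.0166. In samples 4 to 6 the log2 fold change was 4.77 for Ltbp2, 2.28 for Tgfb3, 2.00 for Ltbp3 and 1.46 for Tgfbr2. That of Ltbp2 is set by the pseudocount, since all 3 of its control values there were below 0 and set to 0. In the other 3 sets it ranged from 0.09 to 0.42 for Ltbp2, from 0.26 to 0.76 for Tgfb3, from 0.16 to 0.30 for Ltbp3 and from 0.03 to 0.70 for Tgfbr2. Ltbp4 was higher in the hypertensive-LVH group by 0.76 on the log2 scale in samples 4 to 6 and lower by 0.05 to 0.26 in the other sets, with an adjusted P of 0.0605 for the interaction.

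Without samples 4 to 6 of both groups, 2 members passed at an adjusted P value below 0.05 by limma, where 8.4% of all genes rose. They were Tgfb2, with a log2 fold change of 0.50 ± 0.14 and an adjusted P of 0.0160, and Tgfb3, with 0.51 ± 0.16 and 0.0274. Tgfbr2 was at 0.35 ± 0.12 with an adjusted P of 0.0526, Tgfb1 at 0.30 ± 0.11 with 0.0659 and Ltbp3 at 0.23 ± 0.10 with 0.110. Each of the 6 kept a positive fold change, and that of Ltbp4 turned to -0.14 ± 0.10 with an adjusted P of 0.349. This fit used the adjusted values, where the difference within a set is mixed with the one common to the 4 sets. Samples 4 to 6 may thus still bear on it. In samples 1 to 3, Tgfb3 differed by 0.03 FPKM before the adjustment and by 2.01 FPKM after it. By the exact test before the adjustment, without samples 4 to 6, the adjusted P was 0.0882 for Tgfb2, 0.187 for Tgfb3 and 0.0209 for Ltbp2.

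**Figure D3:**
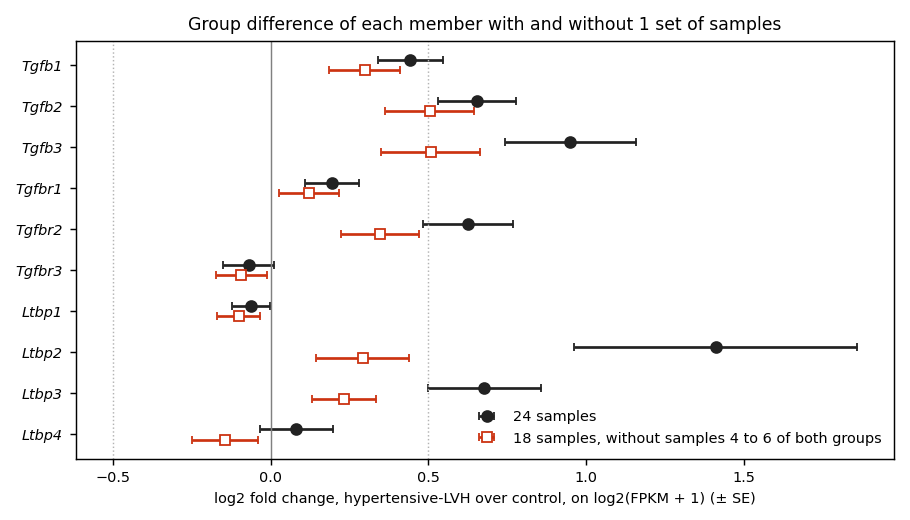
Log2 fold change of each member, hypertensive-LVH over control on log2(FPKM + 1), with SE bars, in all 24 samples (filled circles) and without samples 4 to 6 of both groups (open squares). Dotted lines mark an absolute log2 fold change of 0.5, and the fold of Ltbp2 went from 1.41 to 0.29 when the set was left out.

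The group differences within each set could also be recovered as they stood before the adjustment, since the steps of 0.01 FPKM between the original values give the scaling of each gene. This was possible for 97.4% of the genes in the table and for all 10 members. In samples 4 to 6, every hypertensive-LVH value lay above every control value for 8 of 10 members, against 41.2% of all genes. In samples 7 to 9 this held for 7 of 10 members (Tgfb1, Tgfb2, Tgfb3, Tgfbr1, Tgfbr2, Ltbp2 and Ltbp3), against 19.1% of all genes, and in samples 10 to 12 for 5 of 10 (Tgfb2, Tgfbr1, Tgfbr2, Ltbp2 and Ltbp3), against 13.0%. In samples 1 to 3 it held for 0 of 10 members, against 4.6%. The opposite order, every hypertensive-LVH value below every control value, was found in samples 7 to 9 for Tgfbr3 and Ltbp1 before the adjustment, against 17.9% of all genes, and for these and Ltbp4 on the adjusted values, against 16.8%. On the adjusted values the counts were 1 (Ltbp2) against 6.97% of all genes in samples 1 to 3, 7 against 38.5% in samples 4 to 6, 3 (the ligands) against 10.2% in samples 7 to 9 and 1 (Tgfbr2) against 10.0% in samples 10 to 12. Before the adjustment, the mean was higher in the hypertensive-LVH group for 6 of 10 members in samples 1 to 3, against 41.9% of all genes, for 9 in samples 4 to 6, against 74.9%, for 7 in samples 7 to 9, against 53.7%, and for 7 in samples 10 to 12, against 59.6%. In samples 7 to 9 and samples 10 to 12, each member varied less among the controls than among the hypertensive-LVH samples. For Ltbp2 before the adjustment, the SDs were 0.0889 and 3.82 FPKM in samples 7 to 9, and 0.165 and 6.57 FPKM in samples 10 to 12. Groups separate more easily where the controls lie this close together, and why they do was not tested. With 3 mice per group the smallest P an exact test can give within 1 set is 0.1, so no set was tested alone.

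Before the adjustment, Tgfb2 was higher in the hypertensive-LVH group by 0.83, 5.02, 4.25 and 1.93 FPKM in the 4 sets in order. Tgfb3 differed by 0.03, 17.2, 7.11 and 4.50 FPKM, and Ltbp2 by 1.47, 27.8, 5.99 and 5.77 FPKM. Tgfbr1, which differed by 1.33, 3.25, 1.76 and 1.54 FPKM, was thus higher in each set. Tgfb1 differed by -1.93, 20.8, 14.3 and 6.39 FPKM and Tgfbr2 by -2.45, 27.8, 7.74 and 12.7 FPKM. For these 2 genes the direction in samples 1 to 3 was opposite to that in the adjusted values, which gave 1.07 and 0.515 FPKM. Ltbp3 differed by 1.14, 33.6, 6.84 and 7.18 FPKM. Samples 1 to 3 therefore held the lowest difference for each gene of this paragraph, and samples 4 to 6 the largest. For Tgfbr1 the 1.33 FPKM of samples 1 to 3 lay near the values of samples 7 to 9 and samples 10 to 12.

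In an exact permutation test that exchanged labels within the sets (160000 relabelings, two-sided, adjusted over all genes), the same 6 members passed on the adjusted values, where 16.6% of all genes rose. On the values before the adjustment 7 members passed, where 18.1% of all genes rose, and the 7th was Tgfbr1. Its mean difference was 1.97 FPKM, with an adjusted P of 0.00502 by this exact test, against 0.115 on the adjusted values. Ltbp2 differed by 10.3 FPKM with an adjusted P of 0.00209 by the exact test, Tgfb2 by 3.01 FPKM with 0.00802, Tgfbr2 by 11.5 FPKM with 0.0147, Tgfb3 by 7.20 FPKM with 0.0178, Ltbp3 by 12.2 FPKM with 0.0196 and Tgfb1 by 9.88 FPKM with 0.0359. Without samples 4 to 6 (8000 relabelings), Ltbp2 alone of the 10 members passed, with a difference of 4.41 FPKM and an adjusted P of 0.0209 by the exact test, where 6.0% of all genes rose. Tgfbr1 was then at 1.54 FPKM with an adjusted P of 0.0540 and Tgfb2 at 2.34 FPKM with 0.0882 by the same exact test. There 4 members had an unadjusted P below 0.05, a count given without a share over all genes. The members that passed without samples 4 to 6 were thus not the same on the adjusted values and before the adjustment.

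**Figure D4:**
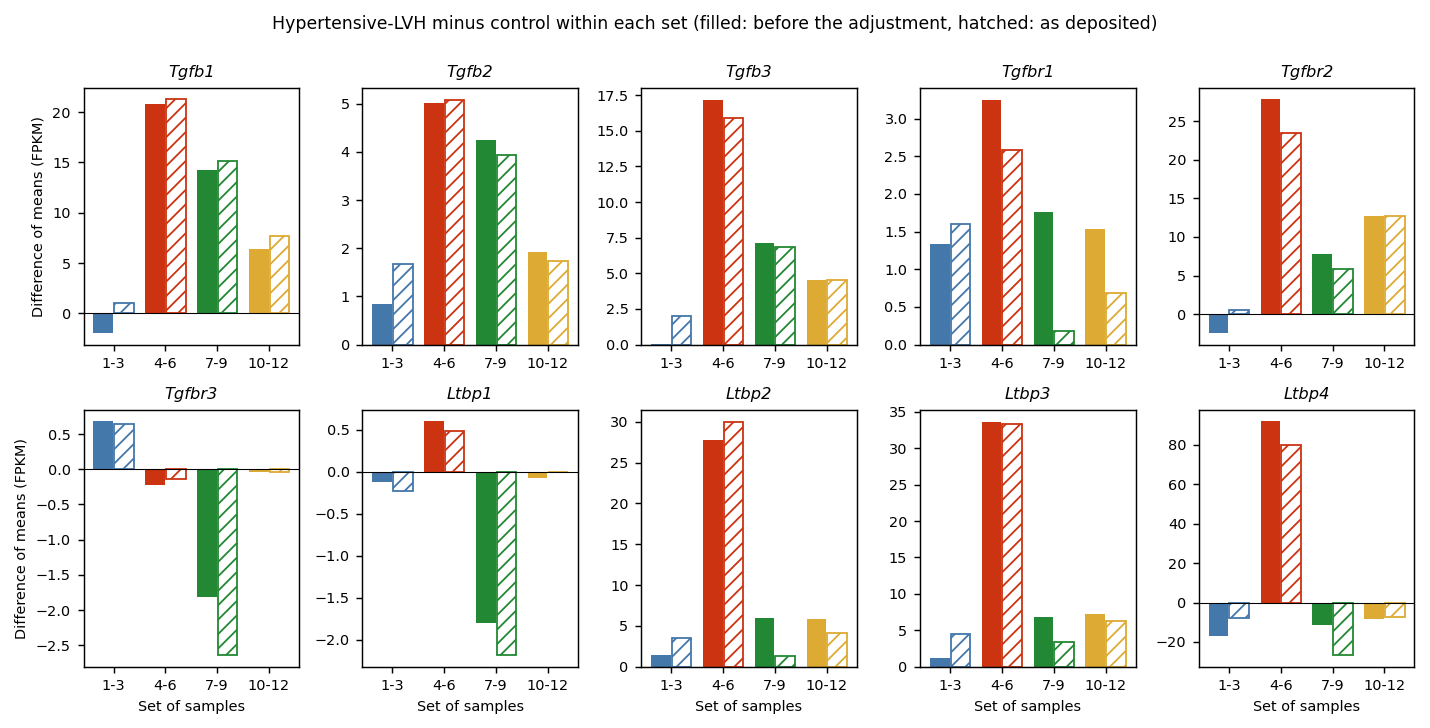
Mean of 3 hypertensive-LVH samples minus mean of 3 control samples (vertical axis, FPKM, a scale for each gene) within each set of samples, before the adjustment (filled bars) and as deposited (hatched bars). Samples 4 to 6 held the tallest bar for 8 of the 10 members, and for Tgfb1 and Tgfbr2 the bars of samples 1 to 3 pointed in opposite directions.

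Correlations between members from mouse to mouse were taken with the group means removed. Of the 45 pairs of members 43 had a positive r and 24 an r over 0.5, with a median r of 0.529, while over all pairs of the 11458 genes with a mean of at least 1 FPKM 58.8% of r were positive, 13.3% were over 0.5 and the median was 0.089. Of the pairs of members 24 passed at an adjusted P below 0.05 for both Pearson's r and Spearman's rho (permutation within groups, 100000 resamples, adjusted over the 45 pairs). The permutation did not keep samples within their sets. Shifts between sets that 2 genes share thus enter these r and P values, which do not measure variation between mice alone. Ltbp2 and Ltbp3 had r = 0.937 and rho = 0.851 over 24 samples, each with an adjusted permutation P of 1.12e-04 (unadjusted 1e-05, the smallest that the resamples can give), and r = 0.763 with the mean of each group in each set removed. Tgfb3 and Ltbp3 had r = 0.929 and rho = 0.826, with r = 0.889 after removing the set means, and Tgfb2 and Tgfb3 had r = 0.830 and rho = 0.848, with r = 0.886. These 2 pairs had the same adjusted permutation P. When the 2 samples most distant from the first gene's median were left out, r was 0.920 for Ltbp2 and Ltbp3, 0.879 for Tgfb3 and Ltbp3 and 0.782 for Tgfb2 and Tgfb3.

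Among the receptors, Tgfbr1 and Tgfbr2 had r = 0.647 and rho = 0.670, with adjusted permutation P values of 0.00273 and 0.00434, and r = 0.829 after removing the set means and 0.626 when the 2 most distant samples were left out. Of the 24 pairs that passed for both r and rho, 17 had r over 0.5 with the set means removed. These 24 are not all the same pairs as the 24 with r over 0.5. Ltbp1 and Ltbp3, for example, passed with r = 0.499. No share over all gene pairs is given for r with the set means removed, so this count has no background beside it. Tgfbr2 and Ltbp3 was not among the 17, with r = 0.732 and 0.368 after removing the set means. The lowest r of the 45 pairs was that of Tgfb1 with Tgfbr3, at r = -0.427 and rho = -0.459, which did not pass (adjusted permutation P of 0.0629 and 0.0535).

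The 2 genes most like each member over the 24 samples, with the mean of each group in each set removed, were found among 11458 genes with a mean of at least 1 FPKM. They are given as a description. For Tgfb1 they were Myh9, non-muscle myosin heavy chain, with r = 0.940, and Actn4, an actin cross-linker, with r = 0.940. For Tgfb3 they were the fibril-associated collagen Col14a1 with r = 0.942 and a row whose symbol a spreadsheet had turned into a date. For Ltbp3 they were the matrix-remodeling associated gene Mxra8 with r = 0.939 and the basement membrane collagen Col18a1 with r = 0.934, and for Ltbp2 Clec11a with r = 0.914 and the collagen Col8a1 with r = 0.909. For Tgfb2 they were the microtubule protein Map1a with r = 0.918 and Nmt2 with r = 0.909. For Tgfbr1 they were the kinase Sgk3 with r = 0.957 and Ugcg, glucosylceramide synthase, with r = 0.952, and for Tgfbr2 Cdkn2aip with r = 0.913 and Lgals8 with r = 0.903. Tgfbr3 was most like Gcfc2 with r = 0.899 and Ap3m1 with r = 0.891, Ltbp1 most like Stk38l with r = 0.882 and Itih5 with r = 0.861, and Ltbp4 most like Ackr4 with r = 0.896 and Sox7 with r = 0.877.

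Around the members, a list of 102 genes of the pathway was read by role, of which 100 were tested. Of these 45 rose and 7 fell, against 20.9% and 12.6% of all genes, and 48 did not pass. The median log2 fold change of the list was 0.23, against 0.05 over all genes. Without samples 4 to 6, 24 of the 100 rose and 7 fell, against 8.4% and 11.7% of all genes in that fit. Col1a1, Col1a2, Col3a1 and Fn1 (fibronectin) of this list were below 0 in control samples 4 to 6, so folds of such genes over all samples are given with those without this set. Other genes of the list also held values below 0, among them Timp1 with 4, Cilp, Comp and Tnc with 3 each, Eln and Fmod with 2 each and Bgn with 1. Counts and median folds of the list over all samples rest in part on such values set to 0.

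The response genes, known targets of the pathway in fibroblasts and other cells, rose in 22 of 28 cases, with a median log2 fold change of 1.30, and in 12 of 28 without samples 4 to 6. Timp1, an inhibitor of matrix metalloproteinases with 4 control values below 0, went from 7.56 ± 11.9 to 48.8 ± 26.7 FPKM (SD, n = 12), with a log2 fold change of 3.09 ± 0.59 and an adjusted P of 3.48e-04 by limma, and 2.54 with 0.0130 without samples 4 to 6. The fibrillar collagen Col1a1 went from 86.7 ± 86.1 to 292 ± 137 FPKM, with a log2 fold change of 2.77 (adjusted P of 0.0180 by limma), and 0.77 (0.0171) without samples 4 to 6. Col3a1 had 2.63 (0.0418 by limma) and, without that set, 0.39 (0.0866). The matrix protein genes of this list overlap the fibroblast markers, with Col1a1, Col1a2 and Col3a1 in both.

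The partners that hold or release the latent complex rose in 12 of 20 cases and fell in 1, and without samples 4 to 6 rose in 8 and fell in 1. Mmp14, a membrane protease, had a log2 fold change of 1.09 ± 0.24 with an adjusted P of 0.00121 by limma and, without samples 4 to 6, 0.54 with 0.0143. Fbn1, the fibrillin to which Ltbp proteins attach, had 1.04 ± 0.28 with 0.00639 and, without that set, 0.37 with 0.0504. The gelatinase Mmp2 had 1.03 ± 0.37 with 0.0343 and, without that set, 0.13 with 0.351. Itgb6, whose integrin activates latent TGF-beta in epithelia, fell from 3.97 ± 0.838 to 2.44 ± 0.655 FPKM, with a log2 fold change of -0.54 ± 0.10 and an adjusted P of 2.97e-04, and -0.64 with 7.66e-04 without samples 4 to 6.

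Of 10 other receptors and surface partners, Cd109, a membrane protein that binds TGF-beta, rose by a log2 fold change of 0.60 ± 0.13 (adjusted P of 0.00103 by limma), and by 0.35 (0.0227) without samples 4 to 6. Of 8 extracellular binders 3 rose and 1 fell, and without that set 1 rose and 1 fell. The proteoglycan Bgn, with 1 value below 0 set to 0, had a log2 fold change of 2.01 ± 0.67 (0.0231 by limma). Without samples 4 to 6 that of Bgn was 0.79 (0.00398). Tsku had 0.63 ± 0.18 (0.00928) and, without that set, 0.32 (0.209), and Aspn 0.59 ± 0.17 (0.0107) and 0.45 (0.123). Htra1, a secreted protease, fell from 65.1 ± 4.09 to 47.6 ± 4.52 FPKM, with -0.45 ± 0.05 (8.84e-07 by limma) and -0.44 without that set.

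The Smad transducers moved little. Of 9 tested, 1 passed, and this was Smad3, which fell from 9.92 ± 0.866 to 8.65 ± 0.940 FPKM with a log2 fold change of -0.18 ± 0.06 and an adjusted P of 0.0166 by limma, and -0.26 with 0.00170 without samples 4 to 6. Of 13 inhibitors of Smad signaling 4 rose and 1 fell, and without that set 2 rose and 1 fell. Pmepa1, a known feedback inhibitor, went from 19.4 ± 4.99 to 33.0 ± 6.98 FPKM with a log2 fold change of 0.75 ± 0.13 (1.69e-04 by limma) and 0.49 (0.00476) without samples 4 to 6. The co-repressors Tgif1 and Skil had 0.55 ± 0.13 (0.00264) and 0.23 ± 0.08 (0.0215), or 0.45 (0.0410) and 0.19 (0.156) without samples 4 to 6. The ubiquitin ligase Nedd4l had -0.16 ± 0.04 (0.00514), or -0.21 (0.00740) without them. Of 12 genes of the kinase branch outside the Smads 3 rose and 3 fell, and without samples 4 to 6 limma called 0 higher and 3 lower. In that fit 2 of the 12 were higher with an unadjusted P below 0.05, and the exact test before the adjustment called 0 higher. The 3 that fell were Map2k6 with -0.42 ± 0.07 (1.55e-04 by limma), Tab1 with -0.26 ± 0.07 (0.00663) and Mapk14, the kinase p38 alpha, with -0.23 ± 0.05 (7.59e-04). The same genes had -0.48 (0.00104), -0.32 (0.00867) and -0.26 (0.00203) without samples 4 to 6.

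**Figure D5:**
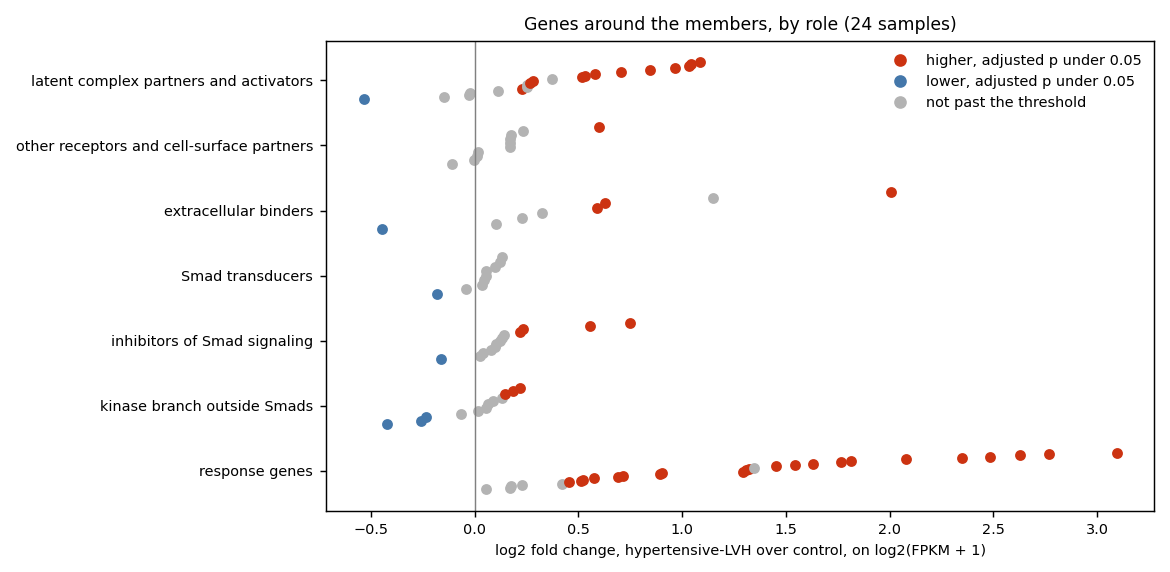
Log2 fold change, hypertensive-LVH over control on log2(FPKM + 1) (horizontal axis), of 100 pathway genes by role, with a point for each gene, red where it rose, blue where it fell and grey where the adjusted P did not pass. Of the 28 response genes 22 rose, and of the 9 Smad transducers Smad3 alone passed, as a fall.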

How the data were processed

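Left ventricles of 12 hypertensive-LVH and 12 control mice were read as deposited. Per the labels and methods, reads were processed with HISAT, Bowtie2 and RSEM, versions not given, and turned into FPKM. The deposited FPKM of 14912 genes were further adjusted by set of samples by the authors, a step the sources used here do not describe: the values fit a model that sets aside 1 group difference per gene, shifts and scales the rest by set, and adds the difference back, and 2741 values are negative. Plain FPKM had been assumed. No read counts were used. Negative values were set to 0, genes with a mean of at least 0.1 FPKM were kept (14026), and log2(FPKM + 1) was tested with limma 3.58.1 with trend (R 4.3.3), adjusted by Benjamini-Hochberg over all genes. Fold changes on this scale understate those of low genes. Printed means and SD keep negative values. All tests were two-sided.

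Within-set differences before the adjustment were recovered from steps of 0.01 FPKM (Python 3.11.15, numpy 2.4.6). On simulated data, 394 of 400 genes were recovered, 0 of them wrongly, and limma called 199 of 200 changed genes. The genes of the recovery simulation were built with the same model that was used to recover them. That simulation thus checks the code and cannot test whether the deposited values were made this way. The limma simulation had independent noise, no sets and no adjustment. Its genes were changed by more than the log2 fold change of any member over all 24 samples. It thus checks that the code runs as meant and does not measure how often limma finds changes like those of the members. The methods call the samples biological replicates. Members and gene lists were chosen with earlier results of these data known. Named beyond the members were, for each pathway role, up to 3 genes with the largest absolute fold change among those that passed and up to 2 that passed against the majority, and the 2 genes most like each member. Ccn1 and Ccn2 of the list are in the table under older symbols and were read as Cyr61 and Ctgf. Alternatives were another pseudocount and filter, other normalizations, tests and blocks, and leaving out samples or sets. The exact test without samples 4 to 6 before the adjustment was added after the data were seen.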

Additional observations from a re-analysis of the deposited data

Results flagged for a closer look

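The group difference of 4 members depended on the set of samples, by the interaction of group and set in limma. The adjusted P was 0.0115 for Tgfb3, 0.0166 for Tgfbr2, 3.84e-08 for Ltbp2 and 2.37e-04 for Ltbp3. In each case the difference was largest in samples 4 to 6. Without these samples, 0 of the 10 members had an interaction that passed in limma, and 0 had an unadjusted P below 0.05. No share over all genes is given for that fit, so these counts have no background beside them. The fit also used the adjusted values, where the difference within a set is mixed with the common one. The fibroblast marker sum, at 142 to 258 FPKM in control samples 4 to 6 and 1654 to 2639 FPKM in hypertensive-LVH samples 4 to 6, moved with these results, and its part in them was not tested.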

How the results depend on the processing

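Of the 6 members that rose, 6 passed under a pseudocount of 0.1, a minimum mean of 1 FPKM, no filter, quantile normalization, median-ratio scaling, no intensity trend and the Wilcoxon rank-sum test. Under quantile normalization the median over all genes was -0.02 in place of 0.05. Over 160 alternatives to single members, 144 kept direction and side of the threshold, 10 lost it, 2 gained it and 4 reversed. The reversals were Ltbp4 without samples 4 to 6 (-0.144 by limma, and -12.3 FPKM by the exact test before the adjustment) and, without samples 7 to 9, Tgfbr3 (0.020) and Ltbp1 (0.002), none past the threshold. Without samples 4 to 6, 2 members passed the adjusted P, 2 passed as DEGs and 31 pathway genes passed in place of 52. In the same omission 0 interactions of members passed, a count given without a share over all genes. In the exact test before the adjustment, the same omission left 1 member and 26 pathway genes. Leaving out each mouse in turn gave 6 to 7 members, 5 to 5 DEGs and 44 to 57 pathway genes, and Tgfbr1 passed without hypertensive-LVH replicates 7, 9 or 10 (adjusted P over all 24 omissions of 0.0385 to 0.150 by limma) and without samples 7 to 9 of both groups (0.0386). With a replicate block, 5 members passed as higher, where 11.3% of all genes rose, and Ltbp2 did not pass (adjusted P of 0.0705 by limma). In that fit 32 pathway genes passed. The labels give no pairing beyond the number, and samples of the same number share a set and its adjustment. Of 12 same-numbered pairs 0 had a correlation over 0.1 (-0.557 to -0.00109), and 0 of 12 samples correlated best with their own number. These correlations do not settle whether same-numbered samples were paired. The causes were not tested.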
